A study of Mus musculus with 2 samples.

Results

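The Mir297, Mir466, Mir467 and Mir669 genes are a set of related microRNA hairpins, found in rodents, that expanded by tandem duplication. They were chosen by name: every gene of the count tables whose identifier carries, in the GENCODE vM21 annotation, a symbol starting with Mir297, Mir466, Mir467 or Mir669. This gave 81 of 2202 microRNA genes, namely 6 Mir297, 28 Mir466, 17 Mir467 and 30 Mir669 genes. They were measured in gastrocnemius, the large muscle of the calf, from male B6CASTF1/J mice at 14 days of age, an F1 cross between C57BL/6 and CAST/EiJ. The study holds 1 group of 2 biological replicates, with no treatment named, with 1 library of total RNA each and a size range below 30 nt. Both replicates carry the same donor label and a note of several males, so each may be a pool, and the spread between them may be partly technical. There is no second tissue, age or treatment, and the question the counts can address is which of these loci were read in growing muscle, and how evenly.

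A microRNA is cut from the stem of a hairpin transcript to a mature strand of slightly over 20 bases, and bases 2 to 8 of that strand, the seed, pair with messenger RNAs that are then repressed. Most of the present genes lie in an intron of Sfmbt2, which encodes a Polycomb group protein and is imprinted in the mouse, with expression from the paternal allele in extraembryonic tissue. The array is best known from placenta and from embryonic stem cells. Among its products, miR-669a is known to repress the muscle regulator MyoD in cardiac progenitors, and miR-466l is known to act on interleukin-10 messenger RNA in macrophages.

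Mature sequences from RefSeq (build GRCm38.p6) were found for 8 of the 81 genes, all of them outside Sfmbt2. They are shown because they let a reader see how alike the family's products are, with alternating U and G or alternating C and A through much of their length. Each is written 5′ to 3′ with the seed in capitals.
miR-466q: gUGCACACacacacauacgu
miR-466k: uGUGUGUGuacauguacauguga
miR-669n: aUUUGUGUguggaugugugu
miR-467g: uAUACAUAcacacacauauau
miR-467h: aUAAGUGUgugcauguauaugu
miR-466j: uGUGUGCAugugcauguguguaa
miR-467f: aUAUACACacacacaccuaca
miR-466i-3p: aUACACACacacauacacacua

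The mature strands lie at chr3:28419988-28420007 (miR-466q, + strand), chr3:85467396-85467418 (miR-466k, +), chr3:115979905-115979924 (miR-669n, +), chr5:34732872-34732892 (miR-467g, -), chr9:115381898-115381919 (miR-467h, +), chr10:60960802-60960824 (miR-466j, +), chr11:69635419-69635439 (miR-467f, -) and chr13:17747552-17747573 (miR-466i-3p, +). Although they look alike, no pair of the 8 has the same seed, so shared repeat letters do not give a shared seed. The seed letters were nevertheless common in the family: AUACAUA, the seed of miR-467g, was found on the transcribed strand of 77.8% of the 81 hairpins and of 3.77% of the other 2121 hairpins. GUGUGUG, the seed of miR-466k, was in 64.2% and 7.45%, and UAAGUGU, the seed of miR-467h, was in 2.47% and 0.566%. A match of letters within a hairpin is a description of the sequence and not a mature product.

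The printed strands are close to stretches of the Sfmbt2 hairpins. Counting a base changed, added or lost as 1 edit, miR-467h is 1 edit from a stretch of Mir467c and Mir467e, miR-467g from Mir467e and Mir669l, and miR-669n from Mir669c. All of those array genes had counts. miR-467f is 1 edit from Mir467d, which had counts, and from all 10 Mir467a copies, which had none. miR-466k is 1 edit from 8 hairpins and miR-466j from 10, and no hairpin of either group had a count. miR-466i-3p is 1 edit from the uncounted Mir466f-1 and Mir466f-2. miR-466q stands farthest from the array, at 3 edits from its nearest stretch, in Mir669h.

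In the 14-day gastrocnemius, 9 of the 81 genes (11.1%) had at least 1 count on their own strand in either library, against 29.2% of the 2121 other microRNA genes. The 9 summed to 1548 counts in replicate 1 and 1254 in replicate 2, which is 564 and 567 CPM (counts-per-million, over the counts that fell in any microRNA gene), 566 CPM ± 2.04 (SD, n = 2). That is 0.0566% ± 0.000204 of the assigned counts, with 95% Wilson intervals of 0.0537% to 0.0593% in replicate 1 and 0.0537% to 0.0599% in replicate 2. The family's total was thus nearly equal in the 2 libraries and small beside that of the muscle microRNA Mir206, which was at 68288 and 67909 CPM. In whole muscle, fewer cells of a type and less RNA per cell cannot be told apart. A count of 0 allows up to 3 reads that map to the gene alone, or 1.09 CPM (replicate 1) and 1.36 CPM (replicate 2), and sets no limit on reads the gene shares with other loci.

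The depth was 2743657 assigned counts of 10056843 reads (27.3%) in replicate 1 and 2211254 of 8189059 (27.0%) in replicate 2. Another 44.0% and 52.1% of the reads mapped to several loci and were in no gene's count, so reads from a product shared by several loci can be missing here. Of the lists of markers, all 9 skeletal muscle microRNAs had counts, and 7 reached 10 CPM in both libraries. They summed to 69535 and 69214 CPM, nearly all of it Mir206. Mir133a-2 had 5 and 4 counts, and Mir1a-1 stood at 14.9 and 9.50 CPM. Mir1a-1 and Mir1a-2 are copies, as are Mir133a-1 and Mir133a-2, and reads shared by copies are in no gene's count. The list for embryonic stem cells, where the array is known to be active, had 5 and 4 counts over the 10 genes in the table, with Mir290a, Mir291a, Mir293, Mir294, Mir295 and Mir367 at 0. The 5 leukocyte microRNAs summed to 1546 and 1549 CPM, and the 6 of the placenta and trophoblast list, most of it the imprinted Mir127, to 111071 and 114282 CPM. All 6 reached 10 CPM in both libraries of this muscle, so that list does not set placenta apart from it. The part of cells other than muscle fibres in the family's counts was not tested.

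Every gene with a count lay inside Sfmbt2. Of the 81, 71 lie inside Sfmbt2 on its own strand, at chr2:10466663-10518279 (build mm10), a span of 51.6 kb. All 71 are intronic, in a single intron of 62.5 kb at chr2:10461473-10523944, between exons 10 and 11 of 1 annotated transcript of 23 exons and exons 11 and 12 of another, and none overlaps an annotated exon of the host. Inside, 9 of 71 genes (12.7%) had a count, and outside 0 of 10, all at 0 in both libraries. Loci are not replicates, so no test was made of that difference. For each of the 10 outside, this allows up to 1.09 and 1.36 CPM of reads that map there alone.

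The 10 outside genes are spread over chromosomes 3, 5, 7, 9, 10, 11 and 13. Mir466q lies inside Tnik on the same strand. Mir466k, Mir669n, Mir467g, Mir467f and Mir466i lie antisense within Gm37240, Slc30a7, Grk4, Fxr2 and Cdk13. Mir297-1, Mir467h, Mir466j and Mir466f-4 lie wholly within no gene annotated as protein-coding, lincRNA, antisense or processed transcript, the types searched. Their hairpins hold longer alternating U and G stretches than those of the array, with a median longest run of 13 bases against 8. The longest stretch they share with another hairpin had a median of 31.5 bases, against 73.0 inside and 19 in other microRNA genes. The part of shared sequence in their lack of counts was not tested.

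**Figure D1:**
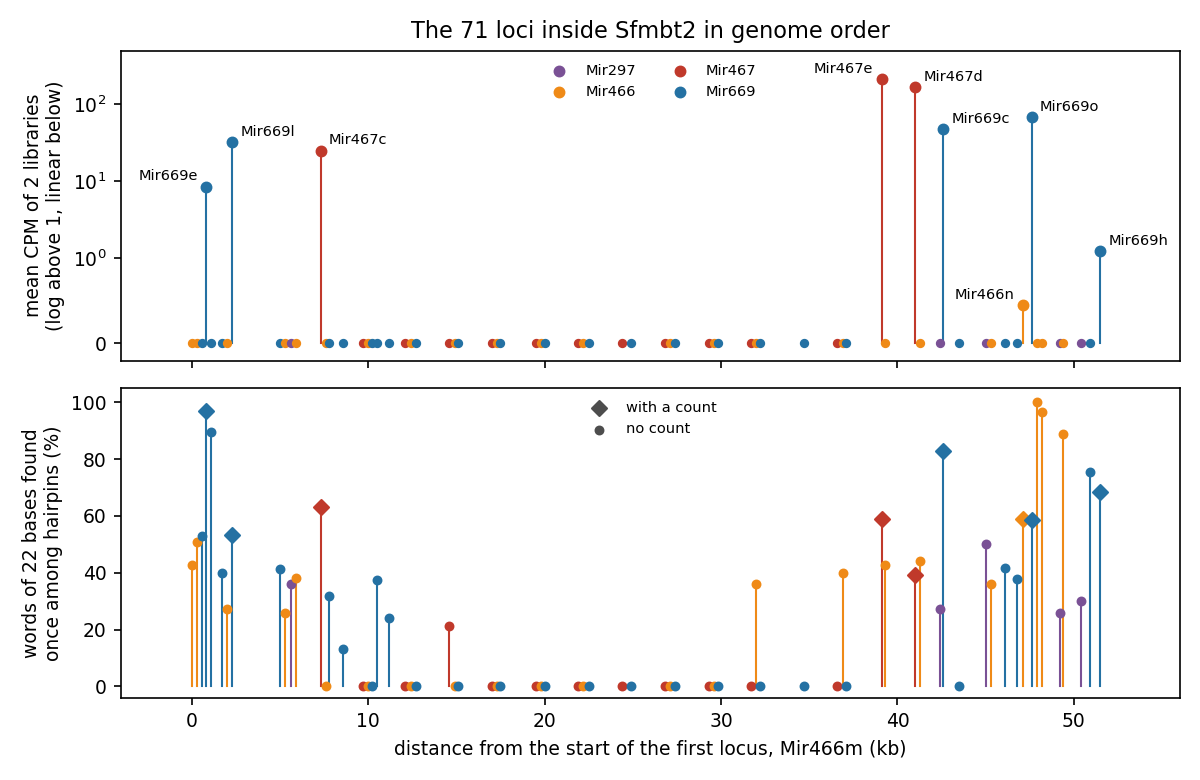
The upper panel plots the mean CPM of the 2 libraries (log scale above 1, linear below) and the lower panel the percentage of 22-base words of each hairpin that occur once among all microRNA hairpins, against distance in kb from the first locus, Mir466m. Each point is 1 of the 71 genes inside Sfmbt2, coloured by name family, and diamonds in the lower panel mark genes with a count. The counted genes stand at both ends, 3 on the left and 6 on the right, around a middle stretch in which no gene has a count and most have no unique word.

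The Mir467 genes gave the larger part of the counts. Mir467e (ENSMUSG00000076948.2, chr2:10505721-10505807) had 583 counts in replicate 1 and 473 in replicate 2, which is 212 and 214 CPM. Mir467d (ENSMUSG00000077021.2, chr2:10507630-10507714) followed with 468 and 372 counts, 171 and 168 CPM. These genes, 1.91 kb apart from start to start, together held 67.6% ± 0.360 (SD, n = 2) of all counts of the family. Mir467e exceeded Mir467d by 1.26-fold ± 0.0182 in counted reads, and their 95% Wilson intervals were separate in both libraries. Mir467c (ENSMUSG00000077049.2, chr2:10473931-10474027), near the other end of the array, was lower, with 72 and 53 counts, 26.2 and 24.0 CPM. Summed, the Mir467 genes were at 408 CPM ± 2.27, from 3 of 17 genes.

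The Mir669 genes had more members with counts at lower levels. Mir669o (ENSMUSG00000077086.1, chr2:10514300-10514395) had 178 and 158 counts, 64.9 CPM in replicate 1 and 71.5 CPM in replicate 2. Mir669c (ENSMUSG00000076118.1, chr2:10509296-10509404) had 132 and 103 counts, 48.1 and 46.6 CPM. Both lie after the repeated middle of the array, on the side of Mir467e. Mir669l (ENSMUSG00000076959.1, chr2:10468971-10469068) had 85 and 74 counts, 31.0 and 33.5 CPM, and Mir669e (ENSMUSG00000080653.1, chr2:10467495-10467613) had 27 and 16 counts, 9.84 and 7.24 CPM. Those are at the opposite end, within the first few kb. Mir669h (ENSMUSG00000080594.1, chr2:10518155-10518279), the last gene of the array, had 3 counts in each library, 1.09 and 1.36 CPM, as many counts as a count of 0 allows. The Mir669 sum was 157 CPM ± 3.67, from 5 of 30 genes.

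Of the other families next to nothing was counted. Mir466n (ENSMUSG00000077991.1, chr2:10513741-10513834) was the single gene of 28 Mir466 genes with a count, with 0 in replicate 1 and 2 in replicate 2. None of the 6 Mir297 genes had any. Of the 28 Mir466 genes, 23 lie in the same intron as the Mir669 genes, interleaved with them on the same strand, and 9 of these have no stretch of mature length that is theirs alone.

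Ordered by level, the genes ran Mir467e, Mir467d, Mir669o, Mir669c, Mir669l, Mir467c, Mir669e, Mir669h and Mir466n. The order was the same when CPM was divided by hairpin length. It ranks reads that map to 1 locus, and was not corrected for how much of each hairpin is its own sequence. In words of 22 bases, described below, that part was 59.1% in Mir467e and 39.1% in Mir467d. As the plot of the counted genes by library shows, the steps in this order were not all clear. Mir467d stood 2.49-fold ± 0.194 above Mir669o, and Mir467c stood 2.99-fold ± 0.457 above Mir669e, with separate intervals in both libraries. Mir669o and Mir669c (1.44-fold ± 0.131) overlapped in replicate 1, Mir669c and Mir669l (1.47-fold ± 0.114) overlapped in replicate 2, and Mir669l and Mir467c (1.29-fold ± 0.153) overlapped in both. Mir669e was 7.17-fold ± 2.59 above Mir669h, a ratio to 3 counts in each library, and Mir669h and Mir466n did not differ beyond counting error. The 4 leading genes held 88.1% ± 0.196 of the family's counts.

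**Figure D2:**
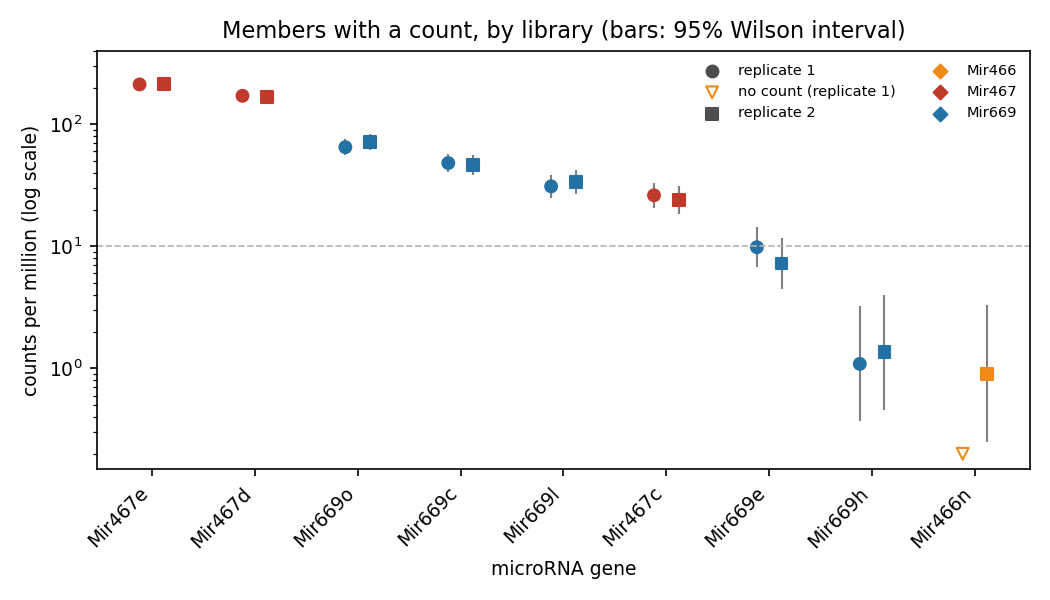
CPM on a log scale for the 9 genes with a count, with circles for replicate 1, squares for replicate 2, bars for the 95% Wilson interval of counting error and a dashed line at 10 CPM; the open triangle marks a count of 0. Mir467e and Mir467d lie apart from the rest, 6 genes lie above 10 CPM in both libraries, and the last 2 genes have wide intervals.

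Among all microRNA genes, Mir467e ranked 137 by mean CPM, Mir467d 154, Mir669o 196, Mir669c 204, Mir669l 217, Mir467c 230 and Mir669e 277. The 3 other genes nearest in mean level to Mir467e (213 CPM ± 1.00) were Mirlet7f-1 at 213 CPM ± 23.7, Mirlet7c-1 at 209 CPM ± 29.8 and Mir128-2 at 208 CPM ± 18.6. The let-7 genes have several copies with the same mature strand, so their counts are subject to the same loss of reads that map to several loci.

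The members with enough counts were also compared between the libraries. Of the 6 genes at 10 CPM or more in both, none was called by the two-sided exact binomial test of the 2 libraries with Benjamini-Hochberg adjustment over all 258 genes tested, and none had an unadjusted p under 0.05. Over the 258, 1.16% were called at 2-fold or more, and 51.9% at the adjusted threshold alone. At 2-fold or more, 0 of 6 is close to the share over all genes and shows nothing particular to the members. The 6 had 53 to 583 counts per library, so small differences could go uncalled. The members' log2 differences (replicate 2 minus replicate 1, on log2(CPM + 1)) ran from -0.14 for Mir467c to 0.12 for Mir669o. Mir467e, with the most counts, was at -0.01 (exact binomial test, adjusted p = 0.981) and Mir467d at -0.04 (adjusted p = 0.808). The smallest adjusted p was 0.553, for Mir669o. The members' median absolute difference was 0.0769, and that of all genes tested was 0.180. That test covers counting error between these libraries only.

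**Figure D3:**
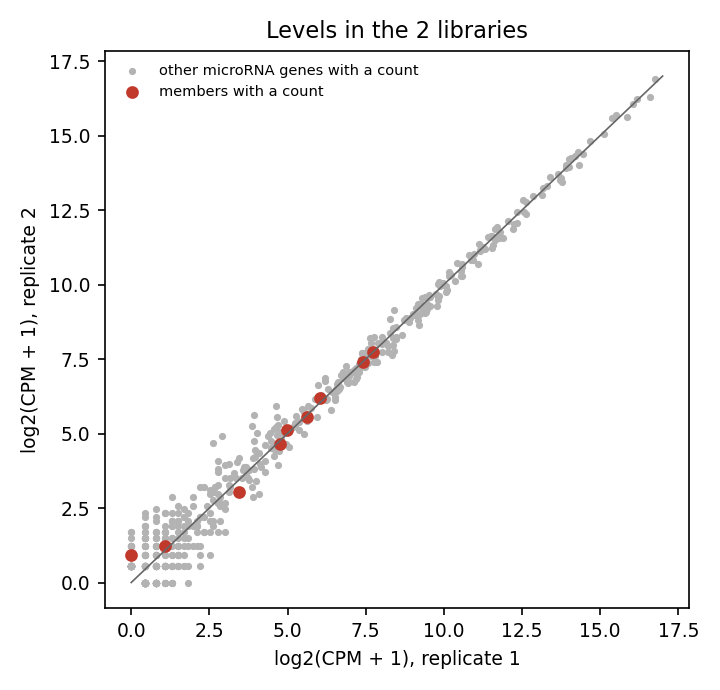
Each point is a microRNA gene with a count, plotted as log2(CPM + 1) in replicate 1 against replicate 2; red points are the 9 family members, grey points all other genes, and the line marks equal levels. The members with 10 CPM or more lie close to the line, with log2 differences between -0.14 and 0.12.

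How much of each hairpin is its own sequence was then measured, since the tables keep reads that mapped to several loci apart from the gene counts. Each hairpin was split into all its words of 22 bases, about the length of a mature strand, and a word was called unique if it occurred once among the hairpins of all 2202 genes, either strand counted. The 9 genes with a count had a median of 59.1% unique words, from 39.1% in Mir467d to 96.9% in Mir669e. The 62 uncounted genes inside Sfmbt2 had a median of 0, the 10 outside a median of 77.0%, and other microRNA genes a median of 100%. Inside the array, then, the median hairpin with a count was more distinct than the median hairpin without one, while the hairpins outside it were more distinct than either and had no counts. The longest stretch shared with another hairpin had a median of 47 bases in the counted genes, 82.5 bases in the uncounted array genes and 19 bases in other genes.

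Of the 32 array genes with no unique word, 0 had a count. Of the 24 with some but at most 50%, 1 had a count, Mir467d, and of the 15 above 50%, 8 had one (53.3%). In the same classes of other microRNA genes, 3 of 265 (1.13%), 3 of 308 (0.974%) and 614 of 1548 (39.7%) had a count. Up to 50%, counts were thus rare in the array and elsewhere. Above 50% the classes differed. Between 50% and 100%, 8 of 14 array genes (57.1%) and 80 of 395 other genes (20.3%) had a count. At 100%, 0 of 1 array gene and 534 of 1153 other genes (46.3%) had one. By family, of the 4 Mir467 array genes with any unique word 3 had counts, of 16 Mir669 genes 5, of 14 Mir466 genes 1 and of 5 Mir297 genes 0. The search covered microRNA hairpins, not the whole genome, and the part of shared sequence in which genes had counts was not tested.

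Distinct sequence did not go with a count everywhere. Mir466g, the only array hairpin with 100% unique words, had no count, and neither had Mir669n on chromosome 3, also at 100%. Mir467f, the most distinct uncounted Mir467 gene (87.9%), and Mir297b, the most distinct Mir297 gene (50%), were at 0 in both libraries as well. The array's 7 uncounted genes above 50% were, beside Mir466g, Mir466h, Mir466l, Mir466f-1, Mir669b, Mir669f and Mir669i, named after their values were seen. Mir466l, the gene of the interleukin-10 regulator, was 89.0% unique. All 8 genes outside Sfmbt2 above 50% were at 0.

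**Figure D4:**
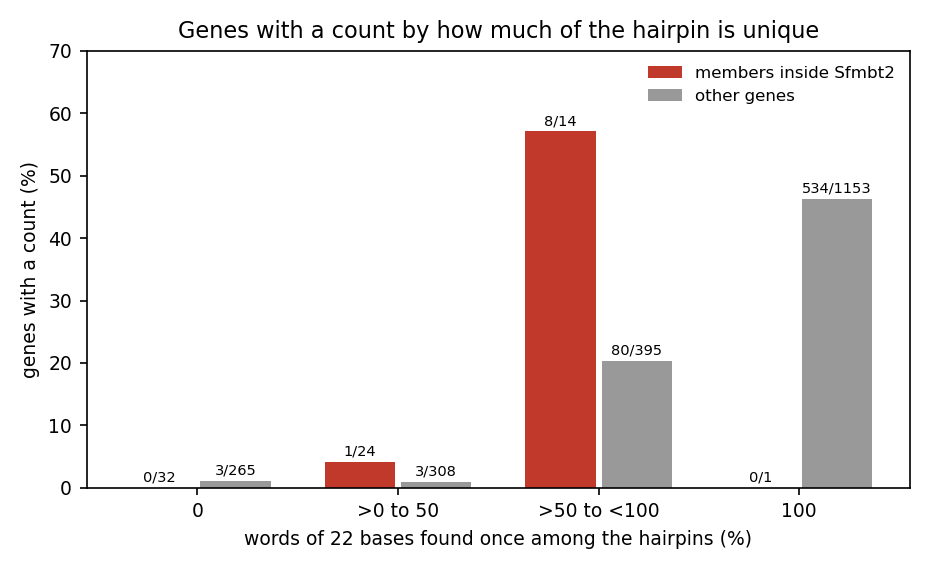
Bars give the percentage of genes with a count, from 0, by the share of a hairpin's 22-base words found once among all microRNA hairpins, for the 71 array genes (red) and the 2121 other genes (grey), with counted and total genes above each bar. The class without unique words has no counted array gene, and the class above 50 and under 100% has 8 of 14.

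The uncounted middle of the array is built from near-identical units. Between Mir467a-1 and Mir669a-12, bounds chosen after the values were seen, lie 35 genes over 27.5 kb, of which 30 have no unique word and 0 have a count. Successive Mir467 genes start 2413 to 2470 bp apart there in 9 of 10 intervals (median 2452 bp), and 4880 bp apart between Mir467a-9 and Mir467a-10. In 10 places the genes follow one another as Mir467, Mir466 and Mir669. The 16 genes before this block included 3 with counts (65.9 CPM ± 1.69 in all), and the 20 after it 6 (500 CPM ± 3.74). The longest run without a count ran from after Mir467c to before Mir467e, 38 genes over 29.7 kb.

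Whole hairpins are repeated as well. The 81 genes have 63 distinct hairpin sequences, and 24 genes fall into 6 groups of identical ones. The largest group is 9 Mir669a genes, from Mir669a-4 to Mir669a-12, followed by groups of 6 and 3 Mir467a genes and by pairs of Mir669p and Mir466b genes. None of these 24 had a count, and a read from inside them maps to several loci by their sequence alone. For the 9 identical genes of miR-669a, the regulator of MyoD, and the 9 repeated Mir467a genes, a count of 0 therefore sets no limit on the level. GENCODE also lists 48 microRNA genes without a family name inside Sfmbt2, 46 of them within the array's span, all on the same strand. All 48 had 0 counts. Of them, 22 had no unique word and 26 had some, up to 97.3% in Gm23542 and 100% in Gm22239.

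The hairpins shared features that the choice by name did not use. Their GC content had a median of 36.5%, against 51.4% in other microRNA genes. An alternating run of U and G of at least 6 bases was found in 93.8% of them and in 15.3% of others. Predicted folding energy, from RNAfold, had a median of -0.413 kcal/mol per base, and -0.365 in others. Counted and uncounted members did not stand apart in the run, with medians of 8 bases in both, and their folding medians were -0.387 and -0.413 kcal/mol per base. All 81 genes had 0 counts on the opposite strand, so the family's counts came from the transcribed strand of each gene. Few other genes had any there, 58 of 2121, or 34 of the 620 with a count on their own strand. The 0 thus shows nothing particular to the members.

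Counting every gene with at least 1 count, both other large arrays compared had a larger share than the 12.7% of the Sfmbt2 array. Of the 43 genes from Mir379 to Mir410, the imprinted array on chromosome 12, 37 (86.0%) had a count, holding 13.3% ± 0.853 of all assigned counts, and 41 of its hairpins (95.3%) were fully unique. The X-linked rodent array, known from testis, had counts in 4 of 21 genes (19.0%), with 12 and 17 counts in all, although 15 (71.4%) were fully unique. Mir201 had 7 and 9 of these counts, Mir547 had 4 and 6, Mir743 had 1 and 1, and Mir878 had 0 and 1. The larger share of the X-linked array thus depended on the minimum of 1 count. When each library had to reach 10 CPM, 0 of 21 X-linked genes remained, against 6 of 71 in the Sfmbt2 array. From Mir379 to Mir410, 32 of 43 genes remained. The Sfmbt2 array lay between in summed level, at 566 CPM ± 2.04, and 1 of its 71 hairpins, the uncounted Mir466g, was fully unique.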

How the data were processed

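The authors deposited raw counts of reads per microRNA hairpin gene, whole numbers and not normalized, 1 table per library, with columns for either, own and opposite strand. The build was mm10 per the labels, and the annotation was M21 per the notes the authors deposited. The aligner, counter and trimming are not given in the sources used here. Counts do not separate the arms of a hairpin, and the effect of CAST/EiJ reads on mapping to mm10 was not tested.

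The own-strand column was used, and the 4 lines that name no gene (unmapped reads, several loci, outside genes, ambiguous) were left out of library sizes. CPM was computed over assigned counts, with 95% Wilson intervals and a limit of 3 counts for a count of 0. Both cover counting error only, since PCR copies of 1 molecule are read as several. For the difference between the 2 libraries, a two-sided exact binomial test with TMM sizes (edgeR 4.0.16, R 4.3.3) was run. It covered genes reaching 10 CPM in each, with Benjamini-Hochberg adjustment at 0.05 and 2-fold. A check on simulated data used counting error only, as the test assumes, and cannot show how the test behaves on these libraries. Gene coordinates and hairpin sequences are from GENCODE vM21, folding energies from RNAfold 2.7.2, and mature sequences from RefSeq. Named were all members with a count, for each family and for each side of Sfmbt2 the uncounted member with the largest unique share, and the 3 other genes nearest in level to the most abundant member. The members and lists were chosen with earlier results of these data known. Alternatives tried were strand, denominator, library scaling, count minimum, word length, sequences searched and leaving out each library.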

Additional observations from a re-analysis of the deposited data

Results flagged for a closer look

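The class of reads outside the gene counts was large in both libraries. In replicate 1, 4421485 reads (44.0%) mapped to several loci, and in replicate 2, 4266018 reads (52.1%), against 1548 and 1254 counts for all 81 genes. The tables do not say which loci these reads came from, so the share of the family among them is not known here.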

How the results depend on the processing

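Of 95 alternative values of 16 results, 27 moved by at least the SD of the 2 libraries, by over 1.5 times for a number of genes, or by at least 1 percentage point for unique words. With 2 libraries, leaving out 1 always moves a level or share by less than that SD, so those values could not count as moved. On the opposite strand, the number of members with a count, the number inside Sfmbt2 and the family's share were all 0. With either strand counted, the share was 0.0737%. The members' own counts were the same there, but the assigned totals were lower, at 2096446 and 1702939 counts. Levels in CPM rose with it, as for Mir467e from 213 to 278 CPM. The family's share was 0.0154% of all reads and 0.0641% without the most abundant gene. Unique words had medians of 53.8% and 57.4% in counted members with words of 18 and 20 bases, and of 20.3% and 23.4% in uncounted members. With all other GENCODE transcripts searched too, an alternative chosen after seeing the data, the uncounted median was 22.2%. Leaving out a library gave 9 members without replicate 1 and 8 without replicate 2, where Mir466n dropped out, 7 members had more than 3 counts in a library, and 6 reached 10 CPM in each. The members called between libraries numbered 0 under every scaling and count minimum tried, with lowest adjusted p from 0.493 to 0.563. A search of the whole genome was not run, as no genome of the build was given. No paired analysis was possible because there is 1 group. Depth limits reads that map to a single locus to levels above 1.09 and 1.36 CPM, and 2 libraries that may be pools give no measure of the spread between animals.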
